A study of Rattus norvegicus with 18 samples.

Results

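The early response of clone #4S2 cells to an inducible mutant proinsulin was measured on 6 of the 18 arrays of the series, the 3 doxycycline-treated and the 3 control arrays of 24 h. Clone #4S2 is a stable line of INS-1, a rat insulinoma line that secretes insulin, which carries a tetracycline-responsive Ins2 (C96Y)-EGFP transgene. The transgene encodes mouse proinsulin in which the substitution C96Y removes a cysteine of a disulfide bond, fused to a green fluorescent protein. The treated cells had received 2 µg/ml doxycycline for 24 h. The controls were the same cells without doxycycline, so both groups carried the transgene and both were kept under G418 and hygromycin. The arrays were chosen by their titles, and each treated array was set against the control of the same replicate number, one pair for each independent experiment. All 31042 probe sets that are not controls of the platform were read, and the 15521 brighter ones, which represent 9080 named genes, were tested. Clone #4S2 is 1 clone, sorted for high fluorescence after induction. No cells without the transgene were given doxycycline on these arrays, so here an effect of the drug and an effect of the transgene cannot be told apart. Apart from the arrays, and without showing the data, the paper reports a control in parental INS-1 cells. The same dose of the drug left mRNA and protein of Grp78 (Hspa5) and Chop (Ddit3) unchanged in them. Other genes were not reported for that control.

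A protein that fails to fold in the endoplasmic reticulum (ER) activates the unfolded protein response. The sensor IRE1 splices the mRNA of the transcription factor XBP1 and the sensor ATF6 is cleaved to a transcription factor, and both factors raise chaperones, oxidoreductases and degradation genes through the ER stress response element (ERSE). The sensor PERK phosphorylates the initiation factor eIF2α, which slows translation in general and favours that of ATF4. ATF4 and its target CHOP (Ddit3) raise genes of amino acid synthesis, amino acid uptake and tRNA charging through CARE, the C/EBP-ATF response element. Beta cells make one secreted protein in bulk and are known to depend on this response.

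The insulin probe sets differed by no more than their spread. Ins2 gave signals of 16025, 17419.5 and 18491 in the doxycycline arrays and 16854, 19682 and 18491 in the controls, a mean log2 ratio of -0.08 ± 0.08 (standard error, n = 3 pairs). No source used here says whether its probe set also reads the mouse transgene, so it is no check of the induction. Beta-cell markers were bright, with Ins1, Iapp, the glucose transporter Slc2a2 and Chga at no less than 13752 signal units in any of the 6 arrays and the transcription factors Pdx1, Nkx6-1 and Mafa at no less than 667. The 10 beta-cell markers with a probe set summed to between 91822 and 102574 in the doxycycline arrays, against 98128 to 107595 in the controls. Acinar markers summed to 166 to 174 over 7 genes in the doxycycline arrays and to 148 to 230 in the controls, and no acinar, endothelial, delta-cell or PP-cell marker was bright enough to be tested. Of 8 fibroblast markers Thy1, at 1194 to 1574 with doxycycline and 1264 to 1634 without, and Pdgfra were tested, and of 6 immune markers C1qa was, at 123.1 to 145 with doxycycline and 158 to 169 without. Of the alpha-cell markers only glucagon was bright, and it is described further on. All 6 arrays had a 3′ to 5′ signal ratio of GAPDH between 1.06 and 1.19. The same ratio of beta-actin was higher and differed by pair. It was 1.97, 1.72 and 2.6 in doxycycline arrays 1, 2 and 3, and 1.96, 1.66 and 2.17 in the controls.

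Few probe sets passed the test, and almost all of them were higher with doxycycline. With limma and Benjamini-Hochberg adjustment over all probe sets tested, 30 were higher (0.193% of those tested) and 2 were lower (0.0129%) at an adjusted p under 0.05. At an unadjusted p under 0.05 there were 1203 higher (7.75%) and 1077 lower (6.94%) probe sets. By size, 45 probe sets (0.29%) were at least 2-fold higher in 2 or more pairs and 11 (0.0709%) were at most 0.5-fold, while 15 (0.0966%) were at least 2-fold higher in all 3 pairs and 0 were at most 0.5-fold in all 3. The median gene had a log2 ratio of -0.01. The p-values rest on the spread of 3 experiments with 1 clone, moderated by limma with the spread of all probe sets tested. Of the 30 higher probe sets, 23 carry a gene name, and the other 7 have no gene in the annotation used. Counted by each gene's brightest probe set, 21 genes were higher, since Sel1l and Pdia3 passed in a dimmer probe set only. Of these 21, 12 were on the 8 lists of ER folding, degradation, translocation, glycosylation and transport, which hold 146 of the genes tested (1.61%) and include genes the study picked on these arrays.

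**Figure D1:**
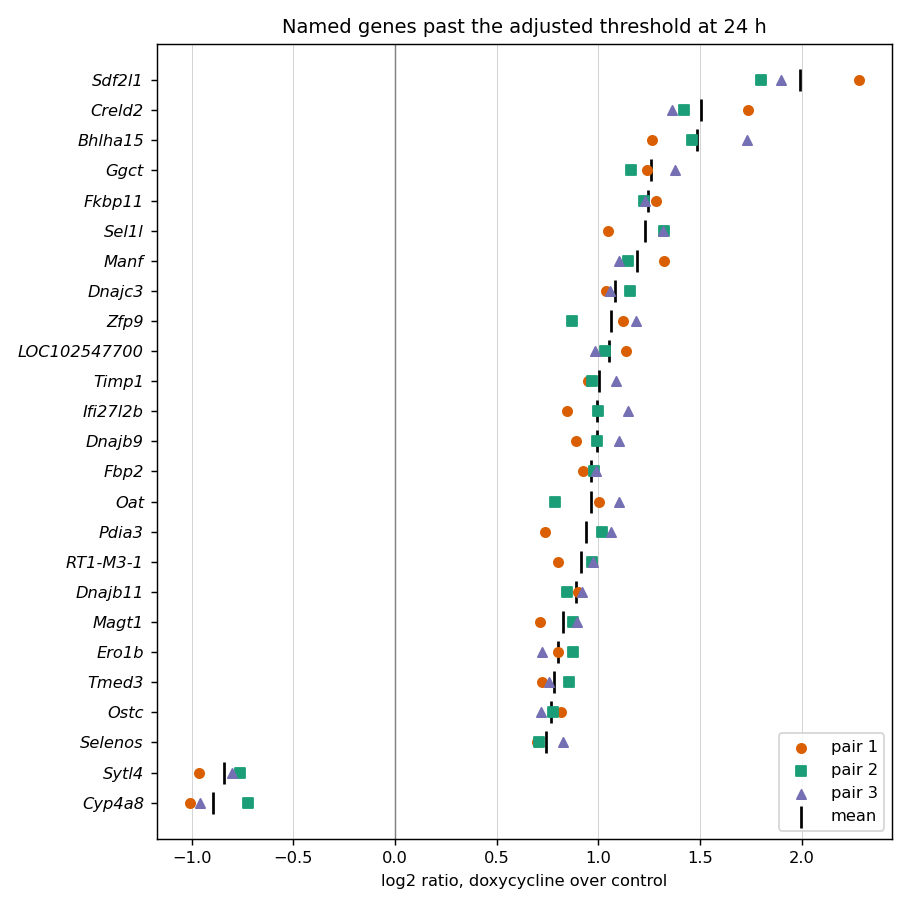
Log2 ratio of doxycycline over control at 24 h for the 25 named probe sets past an adjusted p of 0.05 (limma, Benjamini-Hochberg), one symbol for each of the 3 pairs and a bar for their mean. The 23 higher genes lie above 0 in every pair, from a mean of 0.74 for Selenos to 1.99 for Sdf2l1, and Cyp4a8 and Sytl4 lie below 0 in every pair.

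The promoters of some genes named here are shown because they hold at least 1 of the 2 elements named above. Herpud1 and the genes of the CARE windows shown next did not pass the threshold. The windows come from RefSeq (GRCr8) and run from 250 bases before to 50 bases after the gene start, 5′ to 3′ on the gene's strand. Capitals mark ERSE, searched as CCAAT and CCACG with 9 bases between them, its compact form ERSE-II, searched as ATTGG and CCACG with 1 base between them, or, in Herpud1 alone of the first 6, also CARE, searched as TGATGNAA. Each was searched on both strands, and every ERSE match also holds the short boxes CCAAT and CCACG.
Creld2 (chr7:121789134-121789433, + strand): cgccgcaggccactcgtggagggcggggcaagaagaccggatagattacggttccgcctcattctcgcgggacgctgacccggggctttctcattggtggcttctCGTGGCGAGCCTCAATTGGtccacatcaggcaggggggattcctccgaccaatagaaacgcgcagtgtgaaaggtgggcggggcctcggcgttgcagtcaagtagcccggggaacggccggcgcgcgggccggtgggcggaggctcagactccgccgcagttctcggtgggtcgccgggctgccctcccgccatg
Dnajc3 (chr15:102432417-102432716, + strand): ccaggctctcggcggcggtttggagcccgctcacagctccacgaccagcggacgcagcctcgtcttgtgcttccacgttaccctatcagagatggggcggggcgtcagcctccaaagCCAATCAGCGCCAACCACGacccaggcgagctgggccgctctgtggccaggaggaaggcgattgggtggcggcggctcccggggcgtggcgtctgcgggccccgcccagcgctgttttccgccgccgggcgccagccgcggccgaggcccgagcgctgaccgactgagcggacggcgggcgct
Ero1b (chr17:92941432-92941731, + strand): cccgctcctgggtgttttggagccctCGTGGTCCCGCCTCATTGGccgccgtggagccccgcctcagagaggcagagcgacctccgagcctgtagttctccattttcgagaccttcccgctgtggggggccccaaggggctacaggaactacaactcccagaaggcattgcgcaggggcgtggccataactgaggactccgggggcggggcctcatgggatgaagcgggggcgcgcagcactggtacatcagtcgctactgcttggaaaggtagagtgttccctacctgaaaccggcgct
Ggct (chr4:85459497-85459796, - strand): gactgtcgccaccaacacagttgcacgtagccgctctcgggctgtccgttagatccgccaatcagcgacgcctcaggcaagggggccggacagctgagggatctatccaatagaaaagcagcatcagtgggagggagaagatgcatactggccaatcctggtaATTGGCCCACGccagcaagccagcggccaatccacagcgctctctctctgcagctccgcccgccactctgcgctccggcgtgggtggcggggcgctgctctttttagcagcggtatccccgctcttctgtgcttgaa
Dnajb11 (chr11:91672751-91673050, - strand): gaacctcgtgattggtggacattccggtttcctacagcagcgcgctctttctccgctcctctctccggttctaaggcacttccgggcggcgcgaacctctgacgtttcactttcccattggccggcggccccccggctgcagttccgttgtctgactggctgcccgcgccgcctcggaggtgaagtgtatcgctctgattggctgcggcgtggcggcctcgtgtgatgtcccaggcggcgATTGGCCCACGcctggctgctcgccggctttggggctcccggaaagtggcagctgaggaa
Herpud1 (chr19:10614658-10614957, - strand): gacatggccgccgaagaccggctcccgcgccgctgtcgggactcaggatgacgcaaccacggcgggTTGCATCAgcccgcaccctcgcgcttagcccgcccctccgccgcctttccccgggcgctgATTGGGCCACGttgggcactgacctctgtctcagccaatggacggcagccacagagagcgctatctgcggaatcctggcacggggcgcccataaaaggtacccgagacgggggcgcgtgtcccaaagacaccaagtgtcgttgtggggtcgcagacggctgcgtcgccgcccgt
The ERSE matches begin at -145 in Creld2, -133 in Dnajc3 and -224 in Ero1b, and the ERSE-II matches at -87 in Ggct, -10 in Dnajb11 and -124 in Herpud1, counted from the gene start. Of 33469 rat promoters of this length 22 held ERSE (0.0657%) and 17 held ERSE-II (0.0508%). These are all the promoters listed and not only those of genes tested, and base content was not compared. Among the 23 higher genes 17 had a promoter window, of which 3 held ERSE, 2 held ERSE-II and none held CARE. The short box CCACG was in 14 of the 17 and in 31.6% of all promoters, but also in 34 of the 50 promoters of the PERK and amino acid lists shown next.

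Genes of the PERK and amino acid groups, shown next, held CARE. The 4 windows belong to genes that were high in the control array of pair 1, described further on, and the capitals mark CARE.
Chac1 (chr3:126795881-126796180, + strand): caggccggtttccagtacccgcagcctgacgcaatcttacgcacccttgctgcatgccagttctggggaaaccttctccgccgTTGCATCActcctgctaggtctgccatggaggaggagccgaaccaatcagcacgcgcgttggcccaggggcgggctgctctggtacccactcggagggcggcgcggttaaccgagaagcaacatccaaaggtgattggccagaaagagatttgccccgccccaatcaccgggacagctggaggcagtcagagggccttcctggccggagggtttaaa
Trib3 (chr3:161275484-161275783, - strand): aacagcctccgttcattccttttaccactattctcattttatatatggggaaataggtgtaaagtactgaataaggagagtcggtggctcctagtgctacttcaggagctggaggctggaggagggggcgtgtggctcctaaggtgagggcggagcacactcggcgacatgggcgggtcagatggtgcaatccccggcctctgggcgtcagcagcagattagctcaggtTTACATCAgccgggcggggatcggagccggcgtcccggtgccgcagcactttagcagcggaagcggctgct
Pycr1 (chr10:106420763-106421062, - strand): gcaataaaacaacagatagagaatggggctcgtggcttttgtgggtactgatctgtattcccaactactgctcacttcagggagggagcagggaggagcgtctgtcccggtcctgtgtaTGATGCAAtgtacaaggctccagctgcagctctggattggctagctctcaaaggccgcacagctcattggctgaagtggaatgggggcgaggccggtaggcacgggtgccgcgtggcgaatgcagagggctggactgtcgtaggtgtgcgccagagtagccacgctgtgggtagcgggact
Mars1 (chr7:65023704-65024003, - strand): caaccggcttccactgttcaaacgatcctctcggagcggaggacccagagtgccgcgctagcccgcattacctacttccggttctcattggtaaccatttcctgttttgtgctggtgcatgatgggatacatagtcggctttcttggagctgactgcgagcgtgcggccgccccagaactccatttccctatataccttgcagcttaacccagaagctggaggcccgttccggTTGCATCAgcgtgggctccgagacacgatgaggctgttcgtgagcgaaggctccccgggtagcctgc
The matches begin at -167 in Chac1, -21 in Trib3, -131 in Pycr1 and -17 in Mars1. CARE was in 3.98% of all promoters. It was in 16 of the 50 promoters of genes tested on the PERK, amino acid and tRNA synthetase lists (32%) and in 2 of the 51 promoters of the ER folding and degradation lists, Herpud1 and Man1b1. ERSE was in 7 of those 51, Hspa5, Hsp90b1, Calr, Canx, Creld2, Dnajc3 and Ero1b, and in none of the 50. A match of letters is a description of the window and not of a bound site.

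Chaperones and lectins of the ER had the highest median of the lists. Of 11 genes tested, 3 rose (0.231% of all genes tested did), none fell and 8 did not pass, with a median log2 ratio of 0.55 against -0.01 over all genes. The ER lists hold genes that the study picked on these arrays, so their direction is not independent evidence. Sdf2l1, a partner of BiP in the ER lumen, gave 5369, 6120 and 6762 in the doxycycline arrays against 1103, 1759 and 1812 in the controls. All treated arrays were far above all controls, and Sdf2l1 had the largest mean log2 ratio of the named genes past the threshold, 1.99 ± 0.11 (SE, adjusted p = 0.0237, limma). Creld2, an ER protein with oxidoreductase motifs, gave 4536, 7496 and 6540.4 with doxycycline and 1361, 2798 and 2547 without, a log2 ratio of 1.51 ± 0.10. Manf, an ER-resident factor that binds BiP, gave 6459, 7407 and 8119 with doxycycline and 2585, 3342 and 3783 without, a log2 ratio of 1.19 ± 0.08. In each of the 3 genes the groups did not overlap, as in 5.12% of all genes tested with doxycycline above. Hspa5, which encodes BiP itself, was the brightest of the list at 21345, 23449 and 23709.9 against 11058, 12866 and 15348, and its log2 ratio of 0.81 ± 0.09 did not pass (adjusted p = 0.0554). Calr, Hsp90b1 and Canx, the abundant lectins and chaperones, had ratios of 0.55, 0.44 and 0.40 without passing.

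Of the 8 J-domain co-chaperones tested, which hand substrates to BiP, 3 rose, against 0.231% of all genes tested. Dnajb9 gave 2660, 2988 and 3116 in the doxycycline arrays and 1437, 1500 and 1452 in the controls, with a mean log2 ratio of 0.99 ± 0.08 (adjusted p = 0.0303, limma). Dnajc3 gave 1050.5, 1855 and 2418 against 512, 831 and 1162, a ratio of 1.08 ± 0.07. Its treated array 1 lay below control 3, so the groups overlapped, yet the 3 pairs gave 1.04, 1.16 and 1.06. Dnajb11 rose by 0.89 ± 0.07 with no overlap. The other 5 of the 8 genes tested lay between -0.17 for Dnajb12 and 0.35 for Sec63, which was higher in all 3 pairs without overlap and did not pass (adjusted p = 0.142). The list median was 0.25.

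Among the disulfide isomerases and ER oxidases 1 of 19 genes tested rose, against 0.231% of all genes tested. In all 3 pairs 14 were higher, as were 18% of all genes. The gene that rose was Ero1b, the oxidase of the ER that is abundant in the pancreas. It gave 2675, 3538 and 3264 in the doxycycline arrays and 1532, 1932 and 1978 in the controls, a log2 ratio of 0.80 ± 0.07 (adjusted p = 0.0439, limma). Its paralog Ero1a had pair ratios of -0.34, 0.05 and 0.05, with overlapping groups. Pdia4 had a mean ratio of 0.97 (adjusted p = 0.0823), Pdia5 of 0.71 and Pdia6 of 0.70, all at least 0.59 in every pair and none past the threshold. P4hb, the major disulfide isomerase, had 0.27. A dim probe set annotated as Pdia3, which the study's table names differently, rose by 0.94. The brightest probe set of that gene had 0.46 and did not pass. Another dim one had 1.05 and did not pass either (adjusted p = 0.0635, limma). Of the ER prolyl isomerases only 3 were bright enough to test. Fkbp11 gave 2451, 2852 and 3259 with doxycycline against 1008, 1218 and 1388, with all treated arrays above all controls, and its pair ratios of 1.28, 1.23 and 1.23 had the smallest SD of the 32 probe sets past the threshold. Ppib and Fkbp2 had 0.51 and 0.37.

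ER-associated degradation moves failed proteins to the cytosol for the proteasome. Of 23 genes tested on the list 1 rose, against 0.231% of all genes tested, and the list median was 0.26. In all 3 pairs 16 were higher and none was lower, against 18% and 21.8% of all genes. The gene that rose, Selenos, recruits the p97 ATPase to the membrane, and gave 4355, 5357 and 5837 against 2685, 3281 and 3296 (log2 ratio 0.74 ± 0.07, adjusted p = 0.0495, limma). Sel1l, the adaptor of the ubiquitin ligase of the ER, has 3 probe sets. One rose by 1.23, while its brightest probe set, with 4746, 5952 and 7168 against 2994, 2971 and 3692, had 0.87 (adjusted p = 0.0534) and the remaining one 0.87. Herpud1, whose promoter holds both ERSE-II and CARE, gave 2016, 2433 and 2634 with doxycycline and 1356, 1099.6 and 679 without. Its ratio was 0.57 in pair 1, 1.15 in pair 2 and 1.96 in pair 3, and the mean of 1.22 did not pass (adjusted p = 0.153). At the cytosolic end of the route Vcp had 0.03 and Ufd1 0.04. The 36 proteasome subunits had a median of -0.08, and 15 were lower and 2 higher in all 3 pairs, against 21.8% and 18% of all genes, with none past the threshold.

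Most genes of the path into and out of the ER had ratios above 0 in every pair. Of 22 genes of the translocon and signal peptidase, with a median of 0.30, none passed. Of these, 20 were higher in all 3 pairs, against 18% of all genes. An unadjusted p under 0.05 (limma) on the higher side was found for 15, against 7.68% of all genes. Sec61a1, the pore of the translocon, gave 6308, 7168 and 8264 in the doxycycline arrays against 4368, 4925 and 5288. These groups do not overlap, as in 5.12% of all genes tested with doxycycline above. Its mean ratio was 0.57 (adjusted p = 0.0638, limma). Of 24 N-glycosylation genes 2 rose, against 0.231% of all genes tested, and the list median was 0.21. They were Magt1 (0.83 ± 0.08) and Ostc (0.77 ± 0.07), both subunits of the oligosaccharyltransferase. Of 36 genes of ER to Golgi transport 27 were higher in all 3 pairs, against 18% of all genes, and 1 rose (0.231% of all genes tested did). It was Tmed3, a cargo receptor of the p24 family, at 1867, 2504 and 3261 against 1131, 1382 and 1926 (0.78 ± 0.07, adjusted p = 0.0439, limma). Its treated array 1 lay below control 3, so the groups overlapped, and each treated array was above its own control. Kdelr3, a receptor that returns ER proteins from the Golgi, had 0.82 without passing (adjusted p = 0.0534).

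Of 9 genes of UPR sensors and ER-linked factors 1 rose, against 0.231% of all genes tested. It was Bhlha15, the secretory-cell transcription factor also called Mist1, with 410.3, 695 and 1094 in the doxycycline arrays and 171, 252 and 329 in the controls, a log2 ratio of 1.49 ± 0.11 (adjusted p = 0.0237, limma). All its treated arrays exceeded all controls, and both groups were highest in array 3. Xbp1, for which this array does not separate spliced from unspliced mRNA, had 0.24, and Atf6 and Eif2ak3 (PERK) had 0.34 and 0.52 without passing.

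**Figure D2:**
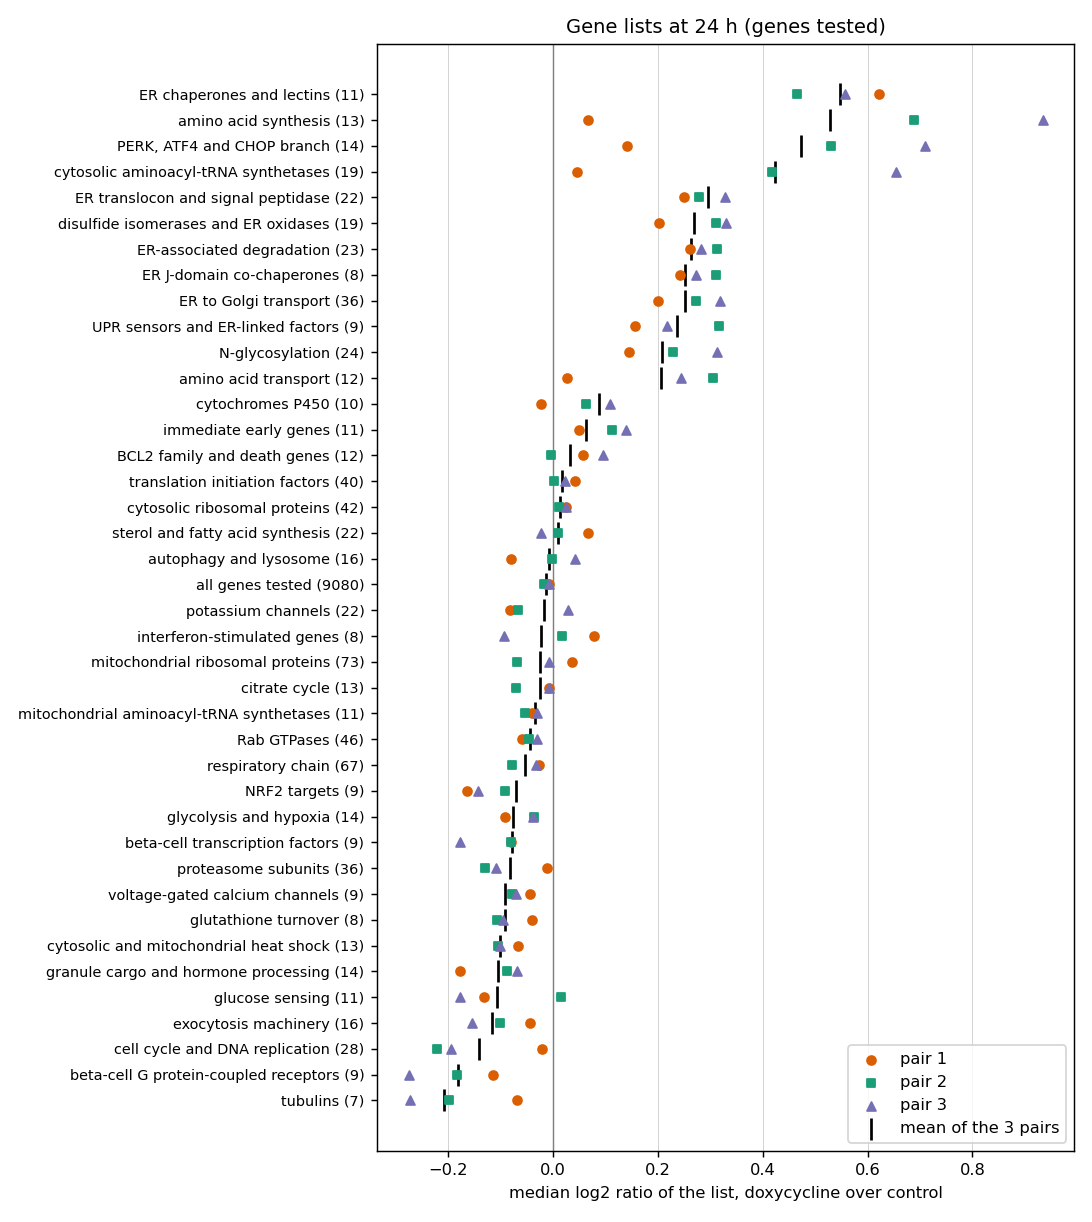
Median log2 ratio of doxycycline over control at 24 h of each gene list with at least 5 genes tested, one symbol for each pair and a bar for the median of the mean ratio, with the number of genes tested in parentheses. ER lists lie between 0.21 and 0.55 with the pairs close together, the amino acid and PERK lists have pair 1 at 0.14 or less and pairs 2 and 3 higher, and all other lists lie between -0.21 and 0.09.

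The PERK branch and the amino acid genes had medians in the range of the ER lists, but a different spread over the pairs. The median of the 14 PERK, ATF4 and CHOP genes was 0.14 in pair 1, 0.53 in pair 2 and 0.71 in pair 3. For 13 genes of amino acid synthesis it was 0.07, 0.69 and 0.93, and for 19 cytosolic aminoacyl-tRNA synthetases 0.05, 0.42 and 0.66. For 12 amino acid transporters it was 0.03, 0.31 and 0.24. In pair 1 the ER lists ranged from 0.14 for N-glycosylation, 0.16 for UPR sensors and 0.20 for disulfide isomerases to 0.62 for chaperones. Pair 1 was the lowest of the 3 pairs in every ER list except chaperones and prolyl isomerases, where it was the highest. Its distance from pairs 2 and 3 was smaller there than in the PERK and amino acid lists, as with 0.14, 0.23 and 0.31 for N-glycosylation. The 11 mitochondrial aminoacyl-tRNA synthetases had a median of -0.04, between -0.05 and -0.03 in the pairs.

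Of the 58 genes tested on these 4 lists 1 rose past the threshold, against 0.231% of all genes tested. It was Oat, ornithine aminotransferase, with 1416, 1681 and 1876 in the doxycycline arrays and 706, 974 and 873 in the controls (log2 ratio 0.96 ± 0.09, adjusted p = 0.0439, limma). Its pair 1 ratio of 1.00 compares with a list median of 0.07 in that pair, and no treated array overlapped the controls. Ddit3, the gene of CHOP, gave 2149, 2312 and 2617 against 1071, 908 and 746, with no overlap, and its mean of 1.39 just missed the threshold (adjusted p = 0.0571). Atf4 gave 11124, 9957 and 11159 with doxycycline and 8607, 4133 and 4597 without, so the treated arrays were alike and control 1 stood apart from the other controls. Its mean ratio was 0.97 (adjusted p = 0.149). Trib3, a pseudokinase induced by ATF4 and CHOP, gave 648, 893 and 1115 against 461, 147 and 99.9, with pair ratios of 0.49, 2.60 and 3.48 (mean 2.19, adjusted p = 0.193). Slc7a11, which imports cystine, had a mean of 2.14 and Pycr1, of proline synthesis, 1.96, and neither passed although all treated arrays exceeded all controls.

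**Figure D3:**
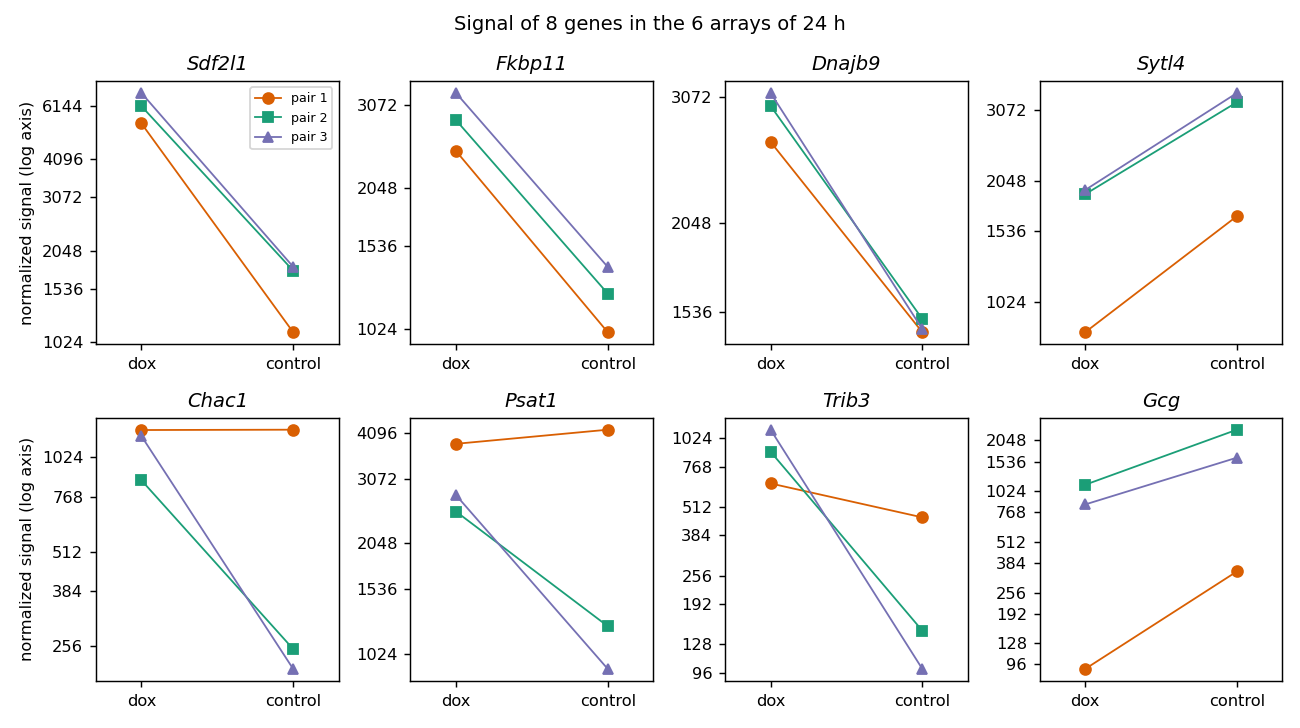
Normalized signal of 8 genes at 24 h on a log axis, doxycycline at left and control at right, with a line for each pair. Sdf2l1, Fkbp11 and Dnajb9 are higher with doxycycline in all pairs, Chac1, Psat1 and Trib3 have a high control in pair 1, Sytl4 is lower with doxycycline in each pair, and Gcg is lowest in both arrays of pair 1.

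Control 1 differed from the other controls in many of these genes. Replicate 1 had been singled out beforehand for the high amino acid genes of its control, so the values that follow describe it and test nothing. It was at least 2-fold above both other controls in 36 probe sets (0.232% of those tested) or 15 genes (0.165%). That number of raised probe sets was not exceptional. The same count within their own group was 20 (0.129%), 3 (0.0193%) and 39 (0.251%) for treated arrays 1, 2 and 3. It was 4 (0.0258%) and 30 (0.193%) for controls 2 and 3. In the lower direction control 1 had the largest count, with 61 probe sets at least 2-fold below both other controls. The lower count was 30, 11 and 39 for treated arrays 1, 2 and 3, and 5 and 39 for controls 2 and 3. Of the 15 genes raised in control 1, 13 were on the 4 lists. The exceptions were Ift140, of transport in cilia, and Serpinb9b, a protease inhibitor. Chac1, which degrades glutathione, led with 1256 in control 1 against 250.4 and 216 in the others, and gave 1253, 866 and 1198 in the doxycycline arrays. Control 1 was thus at the level of the treated arrays, and the pair 1 ratio was 0.00. Psat1, of serine synthesis, gave 3826, 2501 and 2772 with doxycycline and 4181, 1218 and 931 without. Mars1, the methionyl-tRNA synthetase, gave 4152, 3144 and 3791 with doxycycline and 4268, 1913 and 1760.1 without. In both genes control 1 was the highest of all 6 arrays. The others were Slc7a11, Trib3, Pycr1, Slc1a4, Gpt2, Mthfd2, Slc7a1, Psph, Cars1 and Slc6a9, whose control 1 exceeded the nearer control by between 1.14 and 1.94 on the log2 scale.

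The excess was larger in the control array than in its treated partner. Over the 58 genes of the 4 lists, control 1 was above both other controls in 43 (35.4% of all genes tested were). By list, the median of treated array 1 minus the other treated arrays was between -0.04 and 0.09. Control 1 minus the other controls was 0.44 for the PERK list, 0.59 for synthesis, 0.33 for transport and 0.52 for the synthetases. Over all genes tested the 2 medians were -0.004 for treated array 1 and -0.002 for control 1. The promoters of the 15 genes held CARE in 8, those of Chac1, Trib3, Pycr1, Slc1a4, Serpinb9b, Slc7a1, Mars1 and Cars1, and ERSE in none.

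The 64 genes of the 5 ER folding and degradation lists went the other way in control 1. It was above both other controls in 8 and below both in 45 (35.4% and 37.3% of all genes were), with list medians of control 1 minus the others between -0.37 and -0.15. Treated array 1 was low in the same lists, by -0.35 to -0.25 at the median. Control 1 was at least 2-fold below both other controls in 32 genes (0.352%), with Gcg, Slc16a12, Pdia4 and Selenow at the head and 1 gene of the 4 lists, Gdf15, among them. Pdia4, a disulfide isomerase, gave 1991, 4465 and 4328 in the doxycycline arrays and 789, 2825 and 2294 in the controls, with both arrays of pair 1 the lowest of their group.

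**Figure D4:**
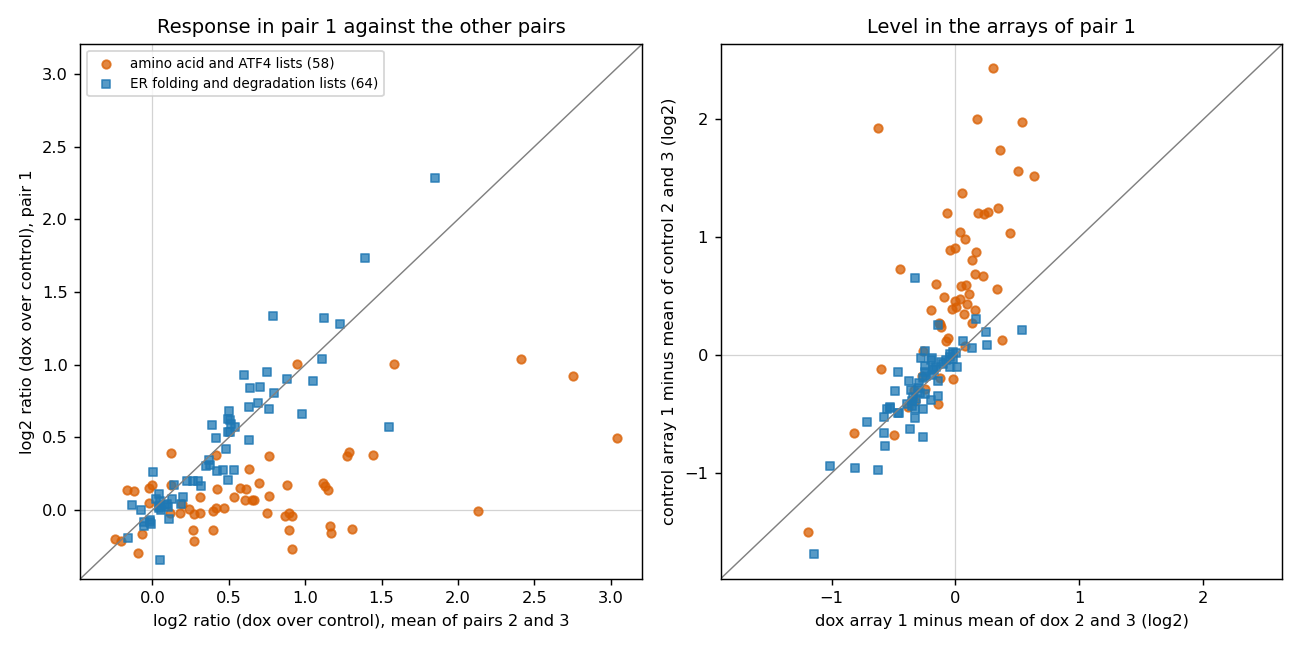
Genes of the 4 PERK and amino acid lists (58) and the 5 ER folding and degradation lists (64). The left panel plots the log2 ratio of doxycycline over control in pair 1 against the mean of pairs 2 and 3, with the line of equal ratios. The right panel plots control 1 against its 2 fellow controls over treated array 1 against its 2 fellow treated arrays (log2), and the medians of the 4 lists lie between 0.33 and 0.59 on the control axis and between -0.04 and 0.09 on the treated axis.

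The other controls of the series place control 1 among them. Taking each list's median level relative to the mean of the 9 controls, control 1 of 24 h stood at 0.12 for the PERK list, against -0.41 and -0.28 in the other 24 h controls and -0.43 to -0.32 in the 48 h controls. For amino acid synthesis it stood at 0.37 against -0.24 and -0.28 at 24 h and -0.37 to -0.29 at 48 h. It was not the highest of the 9. Control 2 of 5 days stood at 1.60 and 1.14 on these lists, and control 1 of 5 days at 0.42 and 0.38. Control 1 of 5 days also stood at 0.57 on the ER chaperone list, where its treated partner stood at -0.42. That partner stood at -0.185 on the PERK list, so in this pair the control was above the treated array on both lists. The reason was not tested, and this control is part of the mean of the 9. The doxycycline arrays of 24 h lay between 0.28 and 0.52 on the PERK list, and between 0.34 and 0.58 (0.585) on the synthesis list. Control 1 of 24 h lay within their range on the synthesis list.

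**Figure D5:**
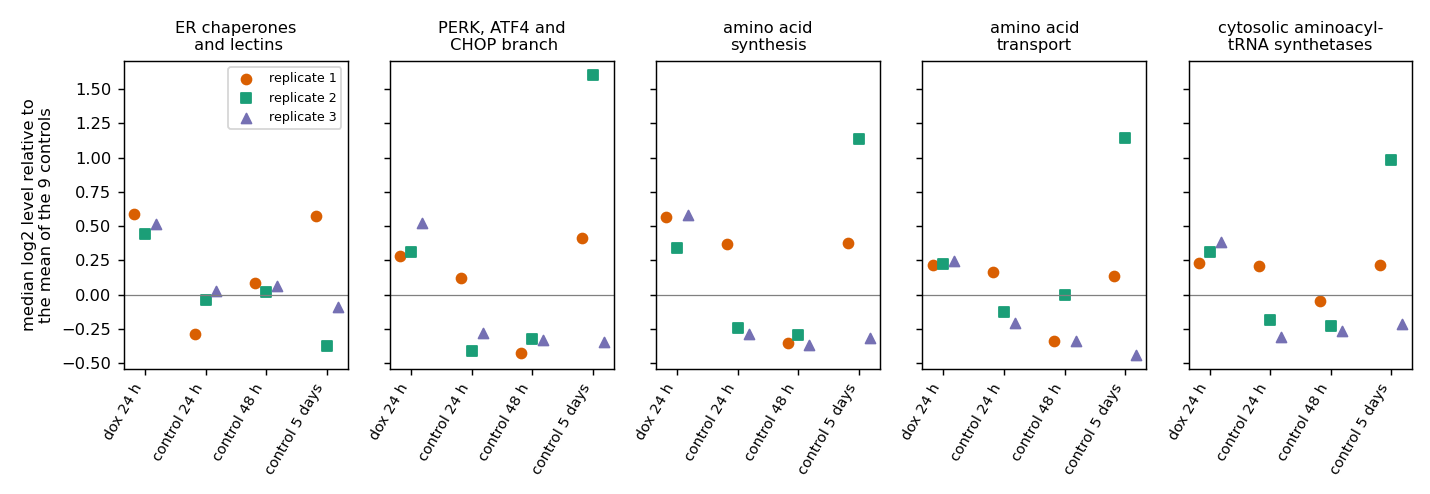
Median log2 level of 5 gene lists in each doxycycline array of 24 h and each control array of 24 h, 48 h and 5 days, relative to the mean of the 9 controls. Control 1 of 24 h lies above the other controls of 24 h and all controls of 48 h on the 4 PERK and amino acid lists (0.12, 0.37, 0.16 and 0.21) and below them on the ER chaperone list (-0.29).

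The calls on these lists depended on the pairs in the fit. In a limma fit that takes the spread from the arrays of 24 h and 48 h, 6 of the 58 genes of the 4 lists passed with all pairs, 20 without pair 1 of 24 h, 0 without pair 2 and 1 without pair 3. Pair 1 had been singled out for its high control in these genes, which makes its ratios small by arithmetic, so the gain without it is no separate evidence. Of the 64 ER folding and degradation genes 27 passed with all pairs, 14 without pair 1, 5 without pair 2 and 7 without pair 3. In the same order, these fits called 169, 81, 11 and 17 of all 15521 probe sets tested as higher, and 45, 10, 1 and 1 as lower. The number of calls thus changed over all probe sets and not only on the lists. Trib3 had log2 ratios of 3.04, 1.99 and 1.55 without pairs 1, 2 and 3 (adjusted p = 0.0141, 0.375 and 0.305, limma). Chac1 had 2.13, 1.23 and 0.89 (adjusted p = 0.0144, 0.516 and 0.459). Psat1 had 1.31, 0.72 and 0.46 (adjusted p = 0.0296, 0.593 and 0.566), and Atf4 had 1.27, 0.82 and 0.82 (adjusted p = 0.0141, 0.256 and 0.25). These fits without a pair were chosen after the data had been seen. Within 24 h alone, leaving out any one pair left no probe set past the threshold (limma), with 872 to 1075 higher and 646 to 946 lower at an unadjusted p under 0.05.

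Outside the ER, 9 named genes rose. Ggct, γ-glutamylcyclotransferase of glutathione turnover, gave 1070 (1069.8), 1246 and 1512 in the doxycycline arrays against 453, 557 and 583 in the controls, a log2 ratio of 1.26 ± 0.08 (adjusted p = 0.0237, limma). The groups were far apart, and no other of the 8 genes tested on the glutathione list passed, with a list median of -0.09. Timp1, an inhibitor of metalloproteinases, gave 138, 148 and 188 against 71.3, 75.7 and 88.5, and Fbp2, a fructose-bisphosphatase, 200.5, 202 and 329 against 106, 102 and 166. Both are dim, and their mean log2 ratios were 1.00 and 0.97 with no overlap of the groups. Timp1 was the 1 probe set of the 32 whose mean over the 9 controls (96.4 units) lay below the brightness filter (121.5 units), so it was tested only through its level in treated arrays. The others were Oat, Bhlha15 in the nucleus, Zfp9 (1.06), a zinc finger gene, LOC102547700 (1.05), which the study's table names differently, RT1-M3-1 (0.92), a gene of the class I histocompatibility complex, and Ifi27l2b (1.00). Ifi27l2b is related to interferon-induced genes, but none of the 8 interferon-stimulated genes tested passed, and their median was -0.02. Dxo, a decapping enzyme, had the largest mean ratio of all named genes tested, 2.42, and did not pass (adjusted p = 0.0534, limma). It gave 295, 419 and 409 in the doxycycline arrays and 54.1, 48.5 and 125 in the controls. Its mean over the 24 h controls, 75.9 units, lay below the brightness filter. So did those of Serpinb9b (67.2), Slc7a11 (104.0), Pdia5 (105.0) and Hrk (105.2). Whether these genes were tested only through their treated arrays was not checked.

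Only 2 probe sets fell, both named. Sytl4, granuphilin, which docks insulin granules at the plasma membrane, gave 858, 1896 and 1943 in the doxycycline arrays and 1672, 3217 and 3391 in the controls. Both arrays of pair 1 were low, so the groups overlap, but the pair ratios of -0.96, -0.76 and -0.80 were close (mean -0.84 ± 0.08, adjusted p = 0.0439, limma). It was the one gene of 16 on the exocytosis list to fall (0.022% of all genes tested did), and the list median was -0.12. Cyp4a8, a fatty acid hydroxylase, gave 412, 380.3 and 369 against 828, 627 and 716 without overlap, a ratio of -0.90 ± 0.09 (adjusted p = 0.0495). The other 9 cytochromes P450 tested did not pass, with ratios between -0.27 and 0.29.

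Glucagon had the most negative mean ratio of all genes tested. Gcg gave 90.0, 1117.6 and 854 in the doxycycline arrays and 342, 2373 and 1619 in the controls, a mean of -1.31 ± 0.20 (adjusted p = 0.0924, limma). Both arrays of pair 1 were several times lower than the others, and each treated array was below its own control. The other alpha-cell markers with a probe set, Irx1, Irx2 and Ttr, were too dim to be tested, the first 2 at most 34.3 units in any array. In these bulk samples fewer cells of a type and less RNA per cell cannot be told apart.

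Genes of the mature beta cell lay slightly below 0 without passing. Of 14 granule cargo and processing genes 7 were lower in all 3 pairs (21.8% of all genes were) and 3 had an unadjusted p under 0.05 on the lower side (6.71% of all genes), with a median of -0.11. Pcsk2, the prohormone convertase, gave 4801, 6450.3 and 6985 with doxycycline and 8017, 9460 (9459.8) and 8807 without, a ratio of -0.54 (adjusted p = 0.127), and all 3 treated arrays were below all controls, as in 3.83% of genes. Kcnj11, the pore of the channel that closes when glucose is metabolised, gave 1967, 1762 and 1909 against 2931, 2775 and 2663, also without overlap (-0.57, adjusted p = 0.0689), and its partner Abcc8 had -0.29. Of 9 beta-cell transcription factors 4 were lower and 1 was higher in all 3 pairs (median -0.08), and of 9 G protein-coupled receptors 4 were lower and 2 higher (median -0.18). Nkx2-2, Mafa, Chrm3 and Glp1r had ratios of -0.38, -0.39, -0.40 and -0.30, each below 0 in every pair. Nkx6-1 had 0.27. Stc1, the hormone stanniocalcin, and Vsnl1, a calcium sensor, had -0.88 and -0.80 (adjusted p = 0.0592 and 0.0534).

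Most other families had medians near 0 at 24 h, and none of the genes named here from them passed. The 42 cytosolic ribosomal proteins had a median of 0.01 and lay between -0.15 and 0.14, and the 73 mitochondrial ribosomal proteins a median of -0.02. The 67 respiratory chain genes had a median of -0.05, with 24 lower in all 3 pairs and 2 higher, against 21.8% and 18% of all genes. The 28 genes of the cell cycle and DNA replication had a median of -0.14, and 13 of them were lower in all 3 pairs and none higher. Their medians were -0.02, -0.22 and -0.19 in the pairs, and Mcm3, a subunit of the replicative helicase, had -0.37 without passing. The 7 tubulins had a median of -0.21, the lowest of the lists with 5 or more genes tested, and none passed. Genes of cytosolic and mitochondrial heat shock had a median of -0.10 over 13 genes and genes of sterol and fatty acid synthesis 0.01 over 22, and 6 of the 13 heat shock genes were lower in all 3 pairs and 1 was higher. Of 12 BCL2 family and death genes none passed. Hrk, a BH3-only gene of apoptosis, had pair ratios of 0.19, 0.75 and 1.74 (mean 0.90, adjusted p = 0.265). Jun, of the immediate early genes, gave 771, 705 and 640.1 against 438, 458 and 397, a ratio of 0.71 with no overlap (adjusted p = 0.0534). The other Jun probe sets tested had smaller ratios, 0.40 and 0.39, and did not pass either. Bloc1s1, a reported substrate of IRE1-dependent RNA decay, had -0.07.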

How the data were processed

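The authors hybridised total RNA of clone #4S2 cells, using the Affymetrix Rat Genome 230 2.0 array. The deposited values are linear intensity values, one signal per probe set and array, scaled by the authors to a 2% trimmed mean between 500.14 and 500.17. No source used here names the program or the background correction behind them. Signals of the 18 arrays were quantile normalized, floored at their 10th percentile (5.989 units) and turned to log2. The brighter 50% of probe sets by their mean log2 value were kept, and the 6 arrays of 24 h were fitted with limma 3.58.1 (R 4.3.3) with the pair as a block, with Benjamini-Hochberg adjustment and a threshold of 0.05. The number of arrays, 3 per group, limits the precision. Pairing is the study's, by independent experiment. After subtracting group means, same-numbered arrays had correlations of 0.667, 0.484 and 0.662, and differently numbered ones of -0.571 to -0.155.

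Of 31042 probe sets, 20826 had 1 gene in the platform's annotation, 436 several and 9780 none. Of the first, 20758 matched RefSeq by gene number, and 12 further probe sets were named from the study's table. Lists and counts of genes use each gene's brightest probe set. Named genes were those past the threshold, the 10 largest and 10 smallest consistent ratios, up to 4 per list, genes the paper names, and those most different in control 1. The members, the 49 lists and the tests were chosen with earlier results of these data known. The list of selenoproteins was chosen after its values were seen, as were a few further members named beside their list. The script was tested on simulated data. Alternatives changed the normalization, floor, filter, block, arrays in the fit, variance moderation and test, or left out a pair.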

Additional observations from a re-analysis of the deposited data

How the results depend on the processing

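The 30 higher and 2 lower probe sets became 28 and 2 without quantile normalization, 26 and 2 with it on the 24 h arrays alone, and 31 and 2 with a floor of 32 units. Without the filter on dim probe sets 0 and 0 passed (limma, 1318 and 1142 at an unadjusted p under 0.05). It was 0 and 0 (483 and 249) without the replicate block, and 0 and 0 (346 and 239) with all 18 arrays in the blocked fit. An unpaired t-test of equal variance, with Benjamini-Hochberg adjustment, gave 0 and 0 (486 and 293). The paper names such a t-test for 2 conditions in general. Its array lists came from GeneSpring and a 2-fold rule in at least 2 experiments. Blocked fits with the arrays of 24 h and 48 h gave 169 and 45, and trend and robust moderation gave 379 and 168. Leaving out a pair gave 0 and 0 in the fit of 24 h alone. In the fits with 48 h, chosen after seeing the data, it gave 81 and 10 without pair 1, 11 and 1 without pair 2, and 17 and 1 without pair 3. All 32 kept their direction under every alternative, except that 1 was not tested when the 24 h arrays were normalized alone. Without the filter 975 probe sets were 2-fold higher and 874 at most 0.5-fold in 2 or more pairs, and 870 were 2-fold higher in control 1. Leaving out a pair gave 18 to 39 and 3 to 4 for the first 2 of these counts, against 45 and 11. The cause of these differences was not tested.

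Some small ratios changed sign when a replicate was left out. Cacna1h lay between -0.168 (without replicate 1) and 0.309, with -0.036 without replicate 2. Dnajc10 lay between -0.032 (without replicate 2) and 0.151, Ero1a between -0.146 and 0.050 (without replicate 1), Ift140 between -0.127 (without replicate 2) and 0.287, and Irf1 between -0.206 and 0.066 (without replicate 2). Mcub lay between -0.294 and 0.174 (without replicate 3), with 0.031 without replicate 2, Plppr5 between -0.191 and 0.068 (without replicate 3), with 0.045 without replicate 2, and Rpl39 between -0.505 and 0.290 (without replicate 3). The fits with 48 h gave the same values. Ins1 had -0.028 without quantile normalization. The dimmer 15521 of the 31042 probe sets were not tested.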

Other observations

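Selenoproteins, a family chosen after its values were seen, had low members in both arrays of pair 1. Selenow, a small redox protein, gave 589, 2606 and 1382 in the doxycycline arrays and 586, 3208 and 1689 in the controls. Selenoh gave 2839.9, 6031 and 5019.8 with doxycycline and 2403, 5557 and 5081 without. Selenom, of the ER lumen, gave 2409, 3884 and 3925 with doxycycline and 1704.5, 2668 and 2609.9 without. In the first 2 genes each treated array was close to its own control, with mean log2 ratios of -0.19 and 0.11, while Selenom had 0.54 (adjusted p = 0.0657, limma) and was higher with doxycycline in all 3 pairs. Gpx4 and Sephs2, also of the family, had control 1 at -0.03 and 0.17 relative to the mean of the other controls on the log2 scale. The part of this difference in the results of pair 1 was not tested.

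Over the 6 arrays, treated and control arrays of one pair were more alike than arrays of one group. Pair 1 had 55 probe sets at least 2-fold apart, pair 2 had 94 and pair 3 had 102. Between treated arrays there were 113 to 325 such probe sets, and between controls 136 to 374.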
